A study of Mus musculus with 2 samples.

Results

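The mouse mitochondrial genome carries 37 annotated genes whose names begin with mt-, and all of them were taken, from every row of both deposited count tables. They comprise 2 ribosomal RNA (rRNA) genes, 13 protein-coding (mRNA) genes and 22 transfer RNA (tRNA) genes on chromosome M (mm10, GENCODE M21). Of 18907 annotated genes with a read in either library, 22 were mitochondrial, with 20 seen in replicate 2 and 21 in replicate 1. The RNA was total RNA of left cerebral cortex from adult mice of strain B6NCrl aged 6 months, sequenced as long reads in 2 libraries that form 1 group, biological replicates 2 and 1. The labels described the mice as C57BL/6 males in one field and gave the sex as not collected in another. A single donor record was given for both samples and no label named separate animals, so some of the spread between replicates may be technical. There were 1304133 reads in replicate 2 and 1306424 in replicate 1, so that 1 read was worth 0.767 CPM (counts scaled to a library of 1000000 reads) in replicate 2 and 0.765 CPM in replicate 1. Models of unannotated genes on the mitochondrial chromosome, 18 in replicate 2 and 19 in replicate 1, served as the comparison.

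The mitochondrial genome is a small circle that encodes a few core subunits of the respiratory chain, with the rRNAs and tRNAs needed to translate them inside the organelle. Both strands are copied into long precursors, and most genes lie on one strand, with tRNAs punctuating the rRNAs and mRNAs and marking the places where the precursors are cut. The mRNAs have little or no untranslated sequence, several lack a whole stop codon until a poly(A) tail is added, and neighbouring reading frames can overlap. Neurons draw heavily on oxidative phosphorylation, and mitochondrial transcripts are abundant in brain RNA. Copies of mitochondrial DNA also lie in the nuclear chromosomes, and a long one on mouse chromosome 1 is almost identical to the mitochondrial sequence.

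The labelled tissue was checked against markers of its cell types. In replicate 2 the markers of cortical neurons summed to 4573 CPM, of astrocytes to 2083, of oligodendrocytes to 3753 and of microglia to 357 CPM. In replicate 1 they summed to 4503 CPM for neurons, 2039 for astrocytes, 4038 for oligodendrocytes and 344 for microglia. Most neuron reads were of Snap25, with 3834 in replicate 2 and 4132 in replicate 1. Slc17a7 had 36 reads in replicate 2 and 130 in replicate 1. Camk2a had 691 in replicate 2 and 390 in replicate 1, and Gad2 had 142 and 72. Syt1 (1034 and 932) and Gad1 (227 in both) differed little. Similar sums thus do not mean that each marker had similar levels in the libraries. Choroid plexus markers summed to 37.6 CPM in replicate 2 and 58.9 CPM in replicate 1, almost all of it Ttr. Muscle and heart markers gave 43.7 CPM in replicate 2 and 34.4 CPM in replicate 1, all from Acta1, with Ckm and Myh6 at 0 in both libraries. Liver markers gave 1.53 CPM in replicate 2 and 0.765 CPM in replicate 1, with Alb at 0 in both.

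Mitochondrial genes took 5.42% of all reads in replicate 2 (70731 reads) and 4.05% in replicate 1 (52927 reads), a mean of 4.74% ± 0.970 (SD, n = 2). The rRNA genes supplied 68.8% of these reads in replicate 2 and 52.8% in replicate 1, and the mRNA genes 31.1% in replicate 2 and 47.1% in replicate 1. The tRNA genes supplied 0.0325% in replicate 2 and 0.0907% in replicate 1. Without mt-Rnr2 the mitochondrial share was 1.91% in replicate 2 and 2.09% in replicate 1, so that the order of the libraries was the other way round. That order in turn depended on mt-Co1. The mRNA genes without mt-Co1 made up 1.55% of all reads in replicate 2 and 1.44% in replicate 1. In tissue RNA of this kind, more cells of a type and more RNA per cell cannot be told apart. Known transcripts held all but 9 mitochondrial reads in replicate 2 and all but 8 in replicate 1, and those few were on spliced models classed as genomic.

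The levels per 1000 bases of annotated gene spread widely across the 15 rRNA and mRNA genes. In order they ran mt-Rnr2, mt-Atp6, mt-Nd1, mt-Co3, mt-Rnr1, mt-Co1, mt-Co2, mt-Nd2, mt-Nd4, mt-Nd3, mt-Cytb, mt-Nd5, mt-Nd4l, mt-Atp8 and mt-Nd6. The values of the libraries did not overlap between mt-Rnr2 and mt-Atp6, mt-Atp6 and mt-Nd1, mt-Nd1 and mt-Co3, mt-Co2 and mt-Nd2, mt-Cytb and mt-Nd5, or mt-Atp8 and mt-Nd6. All other neighbours in the order overlapped. The order holds for reads as the authors assigned them, and it changes when reads of a nuclear copy are added to the matching gene, as given further on.

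**Figure D1:**
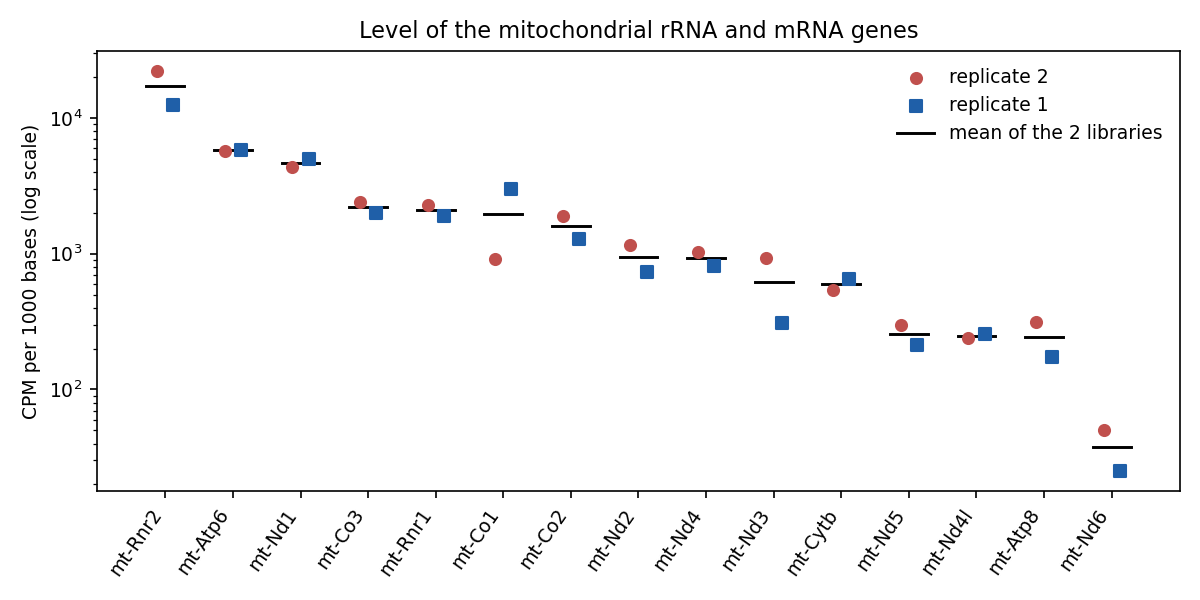
Level of each mitochondrial rRNA and mRNA gene, in CPM per 1000 bases on a log scale, with replicate 2 as circles, replicate 1 as squares and the mean of both as a bar. mt-Rnr2 stood highest at a mean of 17298 and mt-Nd6 lowest at 37.7, and the libraries lay far apart at mt-Co1 and mt-Nd3.

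Each gene with at least 10 counts was tested for a difference between libraries, over all 11838 such genes, by setting its counts against the library totals in an exact binomial test (two-sided). A gene was called at a Benjamini-Hochberg adjusted p under 0.05 with an absolute log2 ratio, replicate 2 over replicate 1, of at least 1. The test sets 2 libraries of 1 group against counting noise and bears on no condition. Of the 16 mitochondrial genes tested, mt-Nd3 was called higher, against 1.61% of all tested genes, and mt-Co1 and mt-Te were called lower, against 5.44%. In either direction 7.05% of all tested genes were called, and 6.17% of those with at least 500 counts, a limit chosen after seeing the data. Without the size limit 13 mitochondrial genes had an adjusted p under 0.05 (exact binomial test), 9 higher and 4 lower in replicate 2, against 12.8% of all genes. Of the 12 mitochondrial genes with at least 500 counts, 11 passed in this way, against 38.7% of all 908 genes above that limit. Depth was not matched here, as the 12 ran from 565 reads over both libraries (mt-Nd3) to 71421 (mt-Rnr2). Without a size limit the test passes smaller ratios at higher counts, so the 2 rates are not compared further. Over all 11838 tested genes the chi-square of the counts was 7.08 per degree of freedom, so the libraries as a whole differed by more than counting noise.

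The median log2 ratio was 0.31 over the 16 mitochondrial genes and 0.00 over all tested genes. The tested mitochondrial genes had a GC content of 31.9% to 41.1%. The 1115 tested nuclear genes within that range had a median log2 ratio of 0.24, and 71.6% of them lay above 0, against 10 of the 16 mitochondrial genes and 54.0% of the 11816 nuclear genes with a sequence. The part of GC content in the mitochondrial ratios was not tested.

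**Figure D2:**
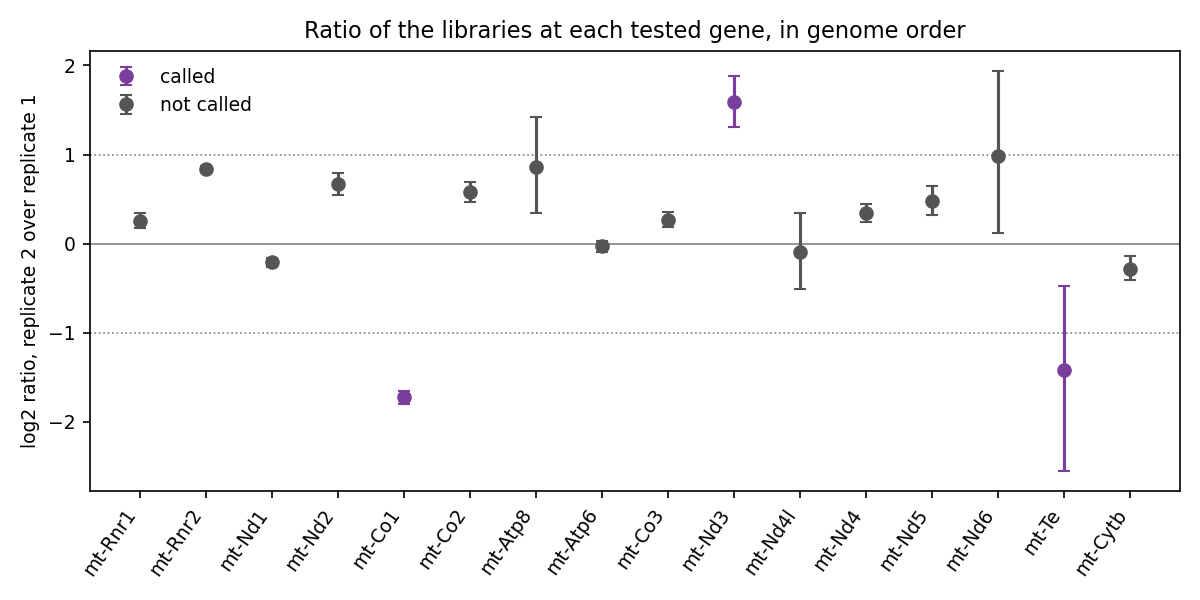
Log2 ratio of replicate 2 over replicate 1 for the 16 mitochondrial genes tested, in genome order, with exact 95% intervals that cover counting error only. Dotted lines mark a ratio of 2-fold in either direction, and the called genes mt-Co1, mt-Nd3 and mt-Te have ratios outside them, with the interval of mt-Te reaching inside.

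The rRNA genes encode the RNA of the small (mt-Rnr1, 12S) and large (mt-Rnr2, 16S) subunits of the mitochondrial ribosome. mt-Rnr2 had 45847 reads (35155 CPM) in replicate 2 and 25574 reads (19576 CPM) in replicate 1, and averaged 17298 ± 6964 CPM per 1000 bases (SD, n = 2). It was higher in replicate 2, with a log2 ratio of 0.84 (95% interval 0.82 to 0.87), short of the size needed for a call. mt-Rnr1 had 2847 reads in replicate 2 and 2380 in replicate 1, an average of 2097 ± 268 CPM per 1000 bases, and a log2 ratio of 0.26. Both ratios had an adjusted p under the threshold, 1e-300 or less for mt-Rnr2 and 2.78e-09 for mt-Rnr1 (exact binomial test). The ribosome holds one of each of these RNAs, and reads of mt-Rnr2 outnumbered those of mt-Rnr1 in both libraries.

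The rRNAs carry no long encoded poly(A) tail, and whether the cDNA was primed on poly(A) is not given in the sources used here, so A-rich stretches inside these genes were looked up in the GENCODE M21 transcripts. The window of 20 bases with most A is printed in capitals for each of them, with 10 bases on either side. That of the mRNA gene mt-Co1 is also given.
mt-Rnr2, chrM:1478-1517, plus strand: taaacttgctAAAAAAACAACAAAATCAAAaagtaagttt
mt-Rnr1, chrM:715-754, plus strand: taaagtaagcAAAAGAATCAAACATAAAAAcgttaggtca
mt-Co1, chrM:5521-5560, plus strand: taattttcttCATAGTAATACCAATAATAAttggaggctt
The window held 16 A in mt-Rnr2, 15 in mt-Rnr1 and 11 in mt-Co1. Across the mRNA genes the most A in such a window ran from 8 in mt-Nd6 to 14 in mt-Nd2 and mt-Atp8. Among 68531 annotated nuclear transcripts of at least 1000 bases, 17.7% held a window of 20 bases with at least 16 A, so such a stretch is common. Whether reads began or ended there could not be seen, because known transcripts are listed at their annotated ends.

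Complex I (NADH dehydrogenase) takes electrons from NADH, and 7 of its subunits are mitochondrial. Its genes held 45.8% of mitochondrial mRNA reads in replicate 2 and 38.0% in replicate 1. Shares by complex, here and below, count reads as the authors assigned them. They leave out 9672 reads in replicate 2 and 9364 in replicate 1 on a nuclear copy described further on. mt-Nd1 was the most abundant, with 5394 reads in replicate 2 and 6245 in replicate 1, averaging 4658 ± 476 CPM per 1000 bases, and was a little lower in replicate 2 (log2 ratio -0.21). mt-Nd2 had 1566 reads in replicate 2 and 986 in replicate 1 (942 ± 304 CPM per 1000 bases) and a log2 ratio of 0.67. mt-Nd4 had 1853 reads in replicate 2 and 1468 in replicate 1 (923 ± 152 CPM per 1000 bases) and a log2 ratio of 0.34. mt-Nd5 had 709 reads in replicate 2 and 508 in replicate 1 (256 ± 60.0 CPM per 1000 bases) and a log2 ratio of 0.48. Each of these ratios had an adjusted p under 0.05, the largest being 2.15e-07 for mt-Nd5 (exact binomial test), and none reached the size needed for a call.

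mt-Nd3 had 424 reads in replicate 2 and 141 in replicate 1, an average of 622 ± 441 CPM per 1000 bases. Its log2 ratio of 1.59 (95% interval 1.31 to 1.88, adjusted p = 6.24e-32, exact binomial test) was the only call toward replicate 2 among the mitochondrial genes. mt-Nd4l had 93 reads in replicate 2 and 99 in replicate 1 (248 ± 10.6), with a log2 ratio of -0.09 and an adjusted p of 0.927 (exact binomial test), and the interval of the ratio ran from -0.51 to 0.34. mt-Nd6 is the only mRNA encoded on the minus strand. It had 34 reads in replicate 2 and 17 in replicate 1, an average of 37.7 ± 17.8 CPM per 1000 bases, and its log2 ratio of 0.98 did not pass the test (adjusted p = 0.106, exact binomial test).

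Complex III passes electrons on to cytochrome c, and its sole mitochondrial subunit is cytochrome b. mt-Cytb had 805 reads in replicate 2 and 977 in replicate 1, averaging 597 ± 80.7 CPM per 1000 bases, with a log2 ratio of -0.28 (adjusted p = 9.35e-04, exact binomial test). It held 3.66% of mitochondrial mRNA reads in replicate 2 and 3.92% in replicate 1.

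Complex IV (cytochrome c oxidase) reduces oxygen to water, and its catalytic core is mt-Co1, mt-Co2 and mt-Co3. mt-Co1 had 1839 reads (1410 CPM) in replicate 2 and 6089 reads (4661 CPM) in replicate 1, and a mean of 1965 ± 1488 CPM per 1000 bases. Its log2 ratio of -1.72 (95% interval -1.80 to -1.65) had an adjusted p of 1e-300 or less by the exact binomial test and was a call toward replicate 1. The other subunits lay on the opposite side. mt-Co2 had 1700 reads in replicate 2 and 1142 in replicate 1 (1592 ± 444 CPM per 1000 bases, log2 ratio 0.58). mt-Co3 had 2456 reads in replicate 2 and 2036 in replicate 1 (2195 ± 293 CPM per 1000 bases, log2 ratio 0.27). Complex IV genes took 27.2% of mitochondrial mRNA reads in replicate 2 and 37.2% in replicate 1. All mitochondrial mRNAs made up 1.69% of library reads in replicate 2 and 1.91% in replicate 1, while without mt-Co1 they made up 1.55% in replicate 2 and 1.44% in replicate 1, so this 1 gene set the order of the libraries.

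Complex V (ATP synthase) makes ATP from the proton gradient, and mt-Atp6 and mt-Atp8 encode parts of its membrane sector. mt-Atp6 was the most abundant mRNA per length, with 5057 reads in replicate 2 and 5171 in replicate 1, averaging 5753 ± 83.5 CPM per 1000 bases. Its log2 ratio of -0.03 had an interval from -0.09 to 0.03. mt-Atp8 had 84 reads in replicate 2 and 46 in replicate 1 (244 ± 101) and a log2 ratio of 0.86 (adjusted p = 0.00948, exact binomial test). Complex V genes held 23.4% of mitochondrial mRNA reads in replicate 2 and 20.9% in replicate 1.

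The mt-Atp8 and mt-Atp6 reading frames overlap and are known to share a bicistronic mRNA, as do mt-Nd4l and mt-Nd4, so a read across the pair can be given to only one of them. The shared bases are in capitals, with their flanks in lower case.
mt-Atp8 and mt-Atp6, chrM:7921-7975, plus strand: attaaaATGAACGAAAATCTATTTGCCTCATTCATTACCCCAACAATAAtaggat
mt-Nd4l and mt-Nd4, chrM:10142-10198, plus strand: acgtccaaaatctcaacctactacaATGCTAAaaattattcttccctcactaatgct
The overlap was 43 bases in the first pair and 7 in the second, and each begins with the start codon of the downstream gene and ends with the stop codon of the upstream one. Per 1000 bases, the mean level of mt-Atp6 was 23.6 times that of mt-Atp8, and that of mt-Nd4 was 3.73 times that of mt-Nd4l, as the reads were assigned. With the reads of a nuclear copy described further on added to their genes, the ratios were 48.0 and 1.48. No copy was paired with mt-Atp8, so in the first pair only mt-Atp6 gained reads, and 48.0 is not a better estimate than 23.6. The low counts of mt-Atp8 and mt-Nd4l, as assigned, hold only reads that the authors' counting gave to them.

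Of the 13 mRNAs, 10 ended in a whole stop codon and 3 in a lone T, as the annotation gives them. The last 30 bases of those 3 are shown with the end of mt-Co1, and capitals mark the stop codon or the part of it that is encoded.
mt-Co3: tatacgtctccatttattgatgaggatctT
mt-Nd4: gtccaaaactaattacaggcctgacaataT
mt-Cytb: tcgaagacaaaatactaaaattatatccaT
mt-Co1: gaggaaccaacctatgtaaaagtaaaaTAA
The log2 ratios of the genes with an incomplete stop codon were 0.27, 0.34 and -0.28, on both sides of 0. Start codons were ATG in 9 genes and ATA (mt-Nd2), ATC (mt-Nd5), ATT (mt-Nd3) and GTG (mt-Nd1) in 1 each.

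tRNA genes, which are 59 to 75 bases long, had 23 reads in replicate 2 and 48 in replicate 1, and 15 of the 22 were at 0 in both libraries. A count of 0 allows up to 3 counts, or 2.30 CPM, in either library. mt-Te, the tRNA for glutamate, had 12 reads (9.20 CPM) in replicate 2 and 33 reads (25.3 CPM) in replicate 1. It was called lower, with a log2 ratio of -1.42 whose interval ran from -2.55 to -0.47 (adjusted p = 0.0234, exact binomial test). The other 6 tRNAs seen had 0 to 8 reads in a library. In replicate 2 they were mt-Ts1 with 5, mt-Ty with 4 and mt-Tp and mt-Tt with 1 each. In replicate 1 they were mt-Tp with 8, mt-Ts1 with 4 and mt-Tt, mt-Tw and mt-Tc with 1 each. Only 8 of the 22 tRNA genes lie on the minus strand, but those held 22 of the 23 tRNA reads in replicate 2 and 46 of the 48 in replicate 1.

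The annotated genes of the minus strand had few reads in both libraries. mt-Te lies directly next to mt-Nd6, the minus-strand mRNA, and both had low counts. Since a read is named by the single annotated transcript it was assigned to, the tables do not show whether a tRNA read was the length of a tRNA or of a longer precursor.

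A nuclear copy of part of the mitochondrial genome lies on chromosome 1, where it is annotated as a row of pseudogenes on the minus strand, from Gm28439 at chr1:24611535-24612410 to Gm29216 at chr1:24615706-24616197 (mm10). Its 7 pseudogenes held 9672 reads in replicate 2 and 9364 in replicate 1, or 0.742% of replicate 2 and 0.717% of replicate 1. Gm10925, identical to mt-Atp6 over 678 of its 681 bases, had 5327 reads in replicate 2 and 5282 in replicate 1, which is 51.3% and 50.5% of the reads of gene and copy together. Gm28661, identical to mt-Co2 over 681 bases, had 1623 reads in replicate 2 (48.8% of the pair) and 1158 in replicate 1 (50.3%). Gm28437, identical to mt-Co3 over 783 bases, had 2316 reads in replicate 2 (48.5% of the pair) and 1889 in replicate 1 (48.1%). Gene and copy thus held nearly equal shares in all 3 of these pairs, in both libraries.

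The other pairs were uneven. Gm10222, identical to mt-Nd4l over 294 bases, had 176 reads in replicate 2 and 124 in replicate 1, more than the gene itself, at 65.4% and 55.6% of the pair. Gm28439, identical to the first 876 bases of mt-Nd4, had 26 reads in replicate 2 (1.38% of the pair) and 25 in replicate 1 (1.67%). Gm28438 and Gm29216 each carry 1 substitution. Windows around these are printed for the mitochondrial gene and its copy, with the differing base in capitals and positions counted from the first base of the gene.
mt-Nd3, bases 1 to 18: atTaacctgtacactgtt
Gm28438: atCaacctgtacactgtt
mt-Co1, bases 1063 to 1081: ggaAttgttttatccaact
Gm29216: ggaTttgttttatccaact
With T3C over 345 bases, Gm28438 took 34 reads in replicate 2 and 29 in replicate 1, 7.42% and 17.1% of the pair. The match of Gm29216 begins at base 1063 of mt-Co1, after 9 bases of the copy that were not aligned. With A1066T over the last 483 bases of mt-Co1, Gm29216 took 170 reads in replicate 2 (8.46% of the pair) and 857 in replicate 1 (12.3%). Gm13340, a copy of mt-Co1 on chromosome 2 with 97.6% identity, had no read in either library.

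**Figure D3:**
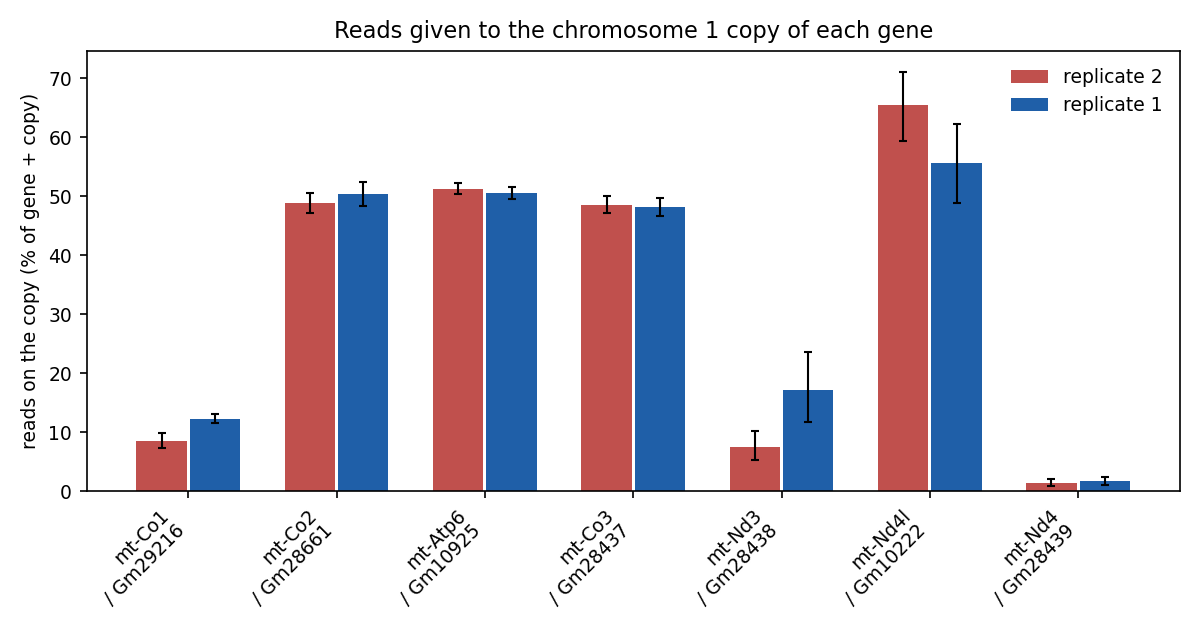
Share of reads given to the chromosome 1 copy, as a percentage of the reads of gene and copy together, with exact 95% binomial intervals and replicate 2 to the left of replicate 1 in each pair. Of the copies identical over nearly the whole gene, those of mt-Co2, mt-Atp6 and mt-Co3 took about as many reads as the gene. That of mt-Nd4l took more than the gene. The copies of mt-Nd4, mt-Co1 and mt-Nd3 took few, and those of mt-Nd4 and mt-Co1 match only part of the gene.

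A read that lies wholly in an identical stretch cannot be placed by its sequence. Levels were therefore also computed with the copy's reads added to the gene, which was decided once the data had been seen. All 7 copies were added, including Gm29216 and Gm28438, which each differ from their gene at 1 base. For mt-Co1 and mt-Nd3 the sums may thus hold reads whose sequence tells copy from gene. mt-Atp6 then stood at 11721 ± 40.3 CPM per 1000 bases, mt-Co3 at 4250 ± 591, mt-Co2 at 3150 ± 814 and mt-Nd4l at 635 ± 84.7. mt-Co2 moved above mt-Co1 (2219 ± 1728) and mt-Rnr1 (2097 ± 268), and mt-Nd4l above mt-Cytb and mt-Nd5. The log2 ratio of mt-Nd4l changed sign, to 0.27 (adjusted p = 0.183, exact binomial test). The calls of mt-Nd3 (1.43) and mt-Co1 (-1.79) held. Shares of mitochondrial mRNA reads by complex were not recomputed. The copy's reads lay mostly at mt-Atp6, mt-Co2 and mt-Co3, so the share of complex I would be lower with them.

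Reads on the strand opposite the annotated genes were counted by block of the chromosome. Outside the control region they came to 4005 in replicate 2, or 5.34% of all reads on the mitochondrial chromosome, and 1046 in replicate 1, or 1.92% (mean 3.63% ± 2.42, SD, n = 2). Models of antisense genes over the whole library, mitochondrial ones included, took 6.22% of all reads in replicate 2 and 4.51% in replicate 1. The mitochondrial opposite-strand reads counted above made up 4.93% of these in replicate 2 and 1.78% in replicate 1. The rest, outside the mitochondrial genome, thus also stood higher in replicate 2. The part of library-wide antisense reads in the mitochondrial difference was not tested.

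The rRNA block held 3004 of these reads in replicate 2 and 670 in replicate 1, or 75.0% and 64.1% of them. In replicate 2 they lay mainly on a model of 2 bases at chrM:1093-1094 with 1630 reads and a model at chrM:1511-2675 with 1265 reads. In replicate 1 a single model at chrM:1093-2675 held 638 reads. Outside the rRNA block, a model at chrM:10167-11544, across mt-Nd4, held 269 reads in replicate 2, and one at chrM:3914-4749, in mt-Nd2, held 170 reads in replicate 2. A model at chrM:14139-15355, across mt-Cytb, had the same ends in both libraries, with 143 reads in replicate 2 and 113 in replicate 1. A model of 2 bases does not give the extent of its reads, and 66.7% of the ends of unannotated mitochondrial models in replicate 2, and 71.1% in replicate 1, fell exactly on an annotated gene boundary. The ends of these models are therefore not read as RNA ends. Without the model of 2 bases, a setting that was not planned, the opposite-strand share of reads averaged 2.55% ± 0.880. That model is found in replicate 2 only, and the model at chrM:1093-2675 in replicate 1 was kept. The setting thus lowers the share of replicate 2 alone, so its smaller SD does not show that the libraries were closer.

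Relative to the genes they face, opposite-strand reads were rare at mt-Nd1 (29 reads in replicate 2 and 24 in replicate 1, 0.535% and 0.383% of the block) and from mt-Co2 to mt-Nd3 (86 reads in replicate 2 and 28 in replicate 1, 0.876% and 0.327%). In replicate 2 they made up 10.2% of the block of mt-Nd2, 12.2% of that of mt-Nd4l with mt-Nd4, 16.5% of that of mt-Nd5 and 15.1% of that of mt-Cytb. In replicate 1 the shares of these blocks were 2.95%, 2.73%, 7.64% and 10.3%. At mt-Co1 there were 120 opposite reads in replicate 2 and 14 in replicate 1, or 6.11% and 0.229% of the block. On the plus strand opposite mt-Nd6 and mt-Te there were 36 reads in replicate 2 and 81 in replicate 1, 43.9% and 61.8% of the block. This was the only gene block with fewer opposite reads in replicate 2. The plus-strand model began at base 13565, the last base of mt-Nd5, which lies on that strand.

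**Figure D4:**
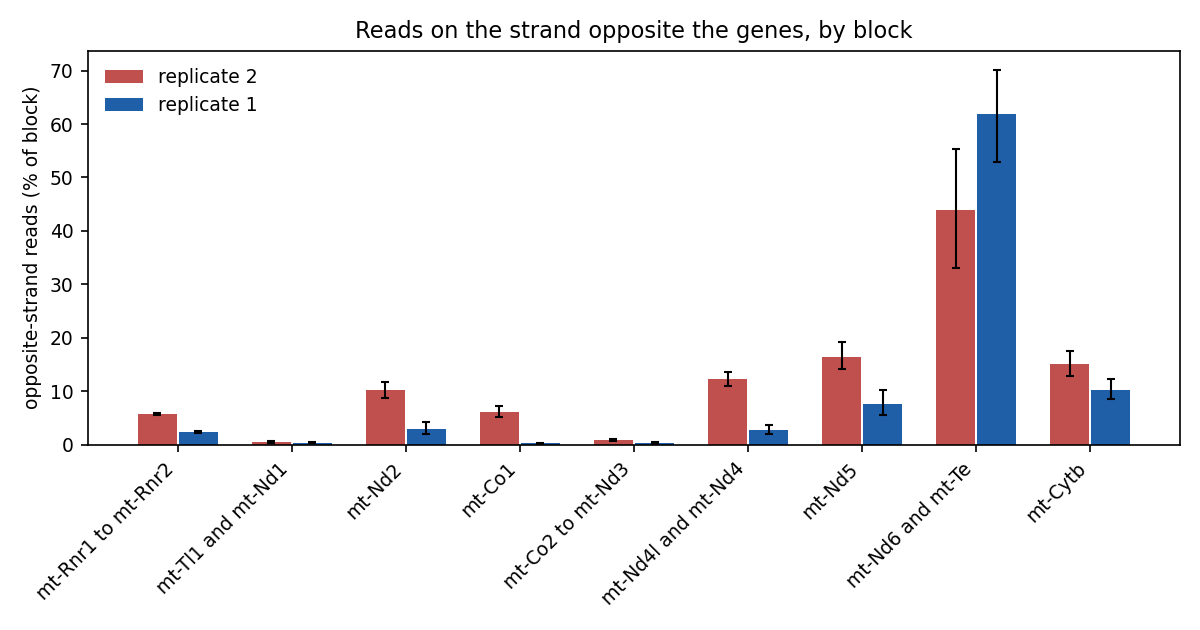
Reads on the strand opposite the annotated genes as a percentage of all reads of the block, with exact 95% binomial intervals and replicate 2 to the left of replicate 1. The block of mt-Nd6 and mt-Te, whose opposite strand is the plus strand, had the highest share, and it alone was higher in replicate 1.

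The control region, which holds the promoters and an origin of replication and no annotated gene, had 201 minus-strand reads in replicate 2 and 391 in replicate 1, with 57 plus-strand reads in replicate 2 and 27 in replicate 1. The minus-strand model was classed as antisense in replicate 2 and as intergenic in replicate 1, so these reads were kept apart from the opposite-strand count. The libraries thus lay in opposite order on the strands of this region.

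Reads on models other than known transcripts that crossed several mRNA or rRNA genes were rare. They numbered 90 in replicate 2 and 23 in replicate 1, 0.120% and 0.0423% of reads on the chromosome. Nearly all lay on the opposite strand, with 86 on the model at chrM:6938-10167 in replicate 2, which faces 6 genes from mt-Co2 to mt-Nd4l, and in replicate 1 with 16 on chrM:7766-8607 and 6 on chrM:8607-9806. On the strand of the gene they were assigned to there were 4 such reads in replicate 2 and 1 in replicate 1, each a spliced model of 1 read. An unspliced read across several genes can be given to a known transcript instead, so these counts do not measure uncut precursors. For the same reason the share of reads on models that ended at an annotated 3′ end of a gene on their own strand (94.3% in replicate 2 and 97.3% in replicate 1) and the share that started at such a 5′ end, which had the same values, equalled the share of reads on known genes.

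The nuclear genes that copy, cut, tail and translate mitochondrial RNA were taken from a list of 55, of which 54 matched the annotation and 50 could be tested. Together they had 1892 CPM in replicate 2 and 1685 CPM in replicate 1. Elac2, the nuclease that cuts tRNA 3′ ends from the precursors, was the only call, with 255 reads in replicate 2 and 89 in replicate 1 (132 ± 90.1 CPM, log2 ratio 1.52, adjusted p = 5.25e-18, exact binomial test). This made 1 of 50 higher, against 1.61% of all tested genes. None of the 50 was called lower, against 5.44% of all tested genes, and the list's median log2 ratio was 0.21 against 0.00 over all tested genes.

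The other abundant members of the list differed less. Rexo2, an exonuclease of short RNA, had 184 reads in replicate 2 and 178 in replicate 1 (139 ± 3.42 CPM). Slirp, which binds and stabilises mitochondrial mRNA with Lrpprc, had 180 reads in replicate 2 and 161 in replicate 1 (131 ± 10.5 CPM). Mrpl12, a protein of the large ribosomal subunit, had 152 in replicate 2 and 183 in replicate 1 (128 ± 16.6 CPM). Fastk, of a family of mitochondrial RNA-binding proteins, had 129 reads in replicate 2 and 182 in replicate 1 (119 ± 28.6 CPM) and a log2 ratio of -0.49 (adjusted p = 0.0285, exact binomial test), too small a ratio for a call. Grsf1, an RNA-binding protein of mitochondrial RNA granules, had 107 in replicate 2 and 136 in replicate 1 (93.1 ± 15.6 CPM). At lower levels than these, the RNA polymerase gene Polrmt had 13 reads in replicate 2 and 12 in replicate 1. Tfam, which packs mitochondrial DNA and starts transcription, had 44 in replicate 2 and 33 in replicate 1.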

How the data were processed

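Long-read RNA sequencing of left cerebral cortex gave 2 libraries of 1 group. The deposited tables hold counts, whole reads per transcript model, with no normalization. Per the file headers they also hold other values, the exon number and length of each model, and the deposited annotations give other values, the positions of models on mm10 with GENCODE M21 genes, built by TALON per their attributes. For the aligner, the TALON version, the instrument and the priming of the cDNA, the sources used here give nothing. The alignments were not used.

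The counts of all models of a gene were added and expressed as CPM, for a library total of 1e6. Shares have exact 95% Clopper-Pearson intervals that, like the floor of 3 counts, cover counting error only. Log2 ratios had 0.5 counts added. Genes with at least 10 counts were compared by an exact binomial test in SciPy 1.17.1 and adjusted by Benjamini and Hochberg's method. The test was checked on simulated counts that held counting noise only, so the check does not cover the wider spread between these libraries. edgeR 4.0.16 and DESeq2 1.42.0 gave normalization factors only, as setting 1 library against 1 leaves no degrees of freedom to estimate spread. An unannotated model counted as crossing genes at an overlap of at least 50 bases, and an end as annotated within 10 bases. Near copies were found by blastn 2.17.0 at 97% identity over at least 200 bases. Sequences came from the GENCODE M21 transcripts. All mitochondrial genes were taken, and those of at least 10 counts were described in full and the rest by counts and range. Also named were the listed nuclear genes of highest CPM and those called, the copies with reads, and the unannotated models of most reads. Polrmt and Tfam were named outside these rules. The genes, lists and tests were chosen with earlier results of these data known.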

Additional observations from a re-analysis of the deposited data

How the results depend on the processing

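Calls of mitochondrial genes numbered 3 with edgeR's TMM factors, DESeq2's size factors, totals without mitochondrial reads, no count minimum, known transcripts or same-strand overlap, and 2 with a minimum of 50 counts, which leaves mt-Te untested. Without the size limit the number was 13. Calls of nuclear genes for mitochondrial gene expression stayed at 1 under the 5 settings tried. Leaving out mt-Rnr2 lowered the mitochondrial share to 2.00% ± 0.131, and adding the reads of nuclear copies gave 5.47% ± 0.988. A single library gave 5.42% (without replicate 1) or 4.05% (without replicate 2) for that share, 5.34% or 1.92% for the opposite-strand share, and 0.120% or 0.0423% for models across several genes. Without the rRNA genes and their models the opposite-strand share was 2.88%, and with the control region counted in, a choice made after seeing the data, it was 4.19%. The log2 ratios of 16 genes under 9 other settings kept their sign and call in 143 of 144 cases. The exception was mt-Nd4l with the copy's reads added, at 0.27. Most of these settings could barely move a ratio, so the count of cases says little about how firm the ratios are. The TMM factors were 1.01 for replicate 2 and 0.991 for replicate 1, and both DESeq2 factors were 1. Levels per 1000 bases moved by over 1 SD in 4 of 60 cases, all with the copy's reads added, at mt-Atp6, mt-Co2, mt-Co3 and mt-Nd4l. End windows of 5, 25 and 50 bases left the shares at annotated ends at 95.8% ± 2.12. No paired analysis was possible because the libraries form a single group. Depth limits mt-Nd6, mt-Atp8, mt-Nd4l and the tRNAs, whose intervals are wide, and 2 libraries give no estimate of spread beyond their difference.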
